A study of Mus musculus with 16 samples.

Results

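The genes of cholesterol synthesis and of sterol sensing, export and storage were examined in the left atrium (LA) of elderly female mice. The 29 genes were taken by their symbols, with no cut on their values, but the list was chosen with earlier results of these data known. They comprised 7 enzymes that make isoprenoid units from acetyl-CoA and 11 enzymes that turn those units into cholesterol. The other members were 5 genes of the SREBP system, and 6 genes of the LXR receptors and of sterol export, storage and transfer. All 29 were found among 24958 named gene rows, and all 29 were among the 14251 genes with a mean of at least 10 normalised counts that were tested.

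RNA of 16 libraries, 4 per group, was taken from the LA of C57BL6/J females at 24 months of age. Control mice kept their ovaries and received no infusion. The study states that sham surgery was done without a vehicle-filled pump, so mice that were not infused carried no pump. AngII mice kept their ovaries and were infused with angiotensin II, a pressor peptide, for 4 weeks before the end. Ovx mice were ovariectomized at 12 months of age and received no infusion. Ovx + AngII mice had the same ovariectomy and the same infusion as AngII mice. Ovx was thus examined 12 months after surgery, in mice already past the usual age of reproduction, and hearts were collected over several hours of the day. The labels do not say whether a library holds RNA from a single mouse, so the p-values measure the spread between these libraries.

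Cholesterol is built from acetyl-CoA through mevalonate, isoprenoids, squalene and lanosterol in a chain of enzymes, most of them in the endoplasmic reticulum. When membrane cholesterol is low, SCAP escorts the SREBP transcription factors to the Golgi for cleavage, and the released factors switch on the enzymes of the pathway. INSIG proteins hold SCAP back when sterols are plentiful. Oxysterols activate the LXR receptors instead, which raise the exporters ABCA1 and ABCG1. Heart muscle can make cholesterol and can take it from lipoproteins, and macrophages of the tissue depend on LXR-driven export.

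The column totals of the normalised counts lay between 17598222 and 21513796, and steps between low values implied about 15958851 to 25161139 reads per library. The control and AngII libraries and the Ovx and Ovx + AngII libraries were deposited on 2 scales, apart by a factor of 1.12, so all values below were rescaled by median-of-ratios factors. The atrial markers Myl7, Myl4, Sln, Nppa, Bmp10 and Dkk3 summed to 649544 or more in every library, whereas 4 ventricular markers summed to at most 1452. One library stood apart. The library labelled Ctrl replicate 4 carried the control label, but the heading row of the deposited table placed it with the AngII libraries. Its mean correlation was 0.945 with the other controls and 0.956 with the AngII libraries, against 0.963 to 0.980 within the own group for the other 15 libraries. Its 10 macrophage markers summed to 46040 normalised counts, against 15870 to 22003 in the other controls, and 5 erythroid markers to 106886, against 6586 to 22530. Its summed atrial markers, 701030, lay below those of the other controls (752812 to 797839) and of the AngII libraries (830214 to 1095287), and its summed fibroblast markers, 38148, were the lowest of the controls. It was kept as a control, and the calls and the values that it moved most are given with and without it.

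Promoter sequence from RefSeq, of build GRCm38.p6, was matched for 24 of the 29 genes. Fdps, Fdft1, Sqle, Stard4 and Abcg1 had no entry. The 250 bases before the outermost start listed in the promoter table were searched. That start need not be the first of the gene: in 8 of the 24 genes part or all of the window lay inside the gene's own RefSeq span. The core of the sterol response element, searched as TCACNCCAC, was found only in Hmgcs1, that is in 4.17% of the 24, against 1.03% of 27025 promoters. The letters CCAAT, the core bound by NF-Y, were found in 18 of the 24, or 75.0%, against 34.5% of all promoters. GGGCGG, the core bound by Sp1, was found in 17, or 70.8%, against 33.0%. Both strands were searched. Among the 15 enzymes with an entry, 13 held CCAAT and 14 held GGGCGG. These letters are descriptions of the sequence and not evidence of binding.

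The promoters of 5 genes are shown, and no result below rests on them. Pmvk and Dhcr7 fell with AngII, and Abca1 and Srebf1 are named in the Ovx comparison, where neither passed. Hmgcs1 held the single match to the sterol element. Pmvk, Dhcr7 and Hmgcs1 were added after their values or matches were seen. Capitals mark matches to the motifs on either strand. The Srebf1 window lies wholly inside the gene's span, before a start within the gene, and 93 of the 250 bases of the Abca1 window lie inside that gene. Each sequence is written 5′ to 3′ on the strand of its gene, with positions on GRCm38.p6.
Pmvk (chr3:89454291-89454540, plus strand): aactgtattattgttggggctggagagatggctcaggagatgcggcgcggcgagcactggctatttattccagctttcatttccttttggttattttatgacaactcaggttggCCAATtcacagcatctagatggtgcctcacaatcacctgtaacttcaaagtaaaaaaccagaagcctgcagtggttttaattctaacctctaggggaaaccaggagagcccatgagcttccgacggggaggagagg
Dhcr7 (chr7:143822917-143823166, plus strand): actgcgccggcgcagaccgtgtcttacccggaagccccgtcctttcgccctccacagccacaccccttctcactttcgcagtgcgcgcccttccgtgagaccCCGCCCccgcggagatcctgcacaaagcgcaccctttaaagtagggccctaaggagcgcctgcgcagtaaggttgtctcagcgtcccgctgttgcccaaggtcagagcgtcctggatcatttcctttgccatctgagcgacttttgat
Hmgcs1 (chr13:119690101-119690350, plus strand): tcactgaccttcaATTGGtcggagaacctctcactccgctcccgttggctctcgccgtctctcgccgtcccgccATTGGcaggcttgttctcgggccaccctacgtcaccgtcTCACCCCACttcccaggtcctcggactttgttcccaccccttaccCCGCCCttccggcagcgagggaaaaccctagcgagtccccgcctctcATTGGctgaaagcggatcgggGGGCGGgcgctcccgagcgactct
Abca1 (chr4:53159896-53160145, minus strand): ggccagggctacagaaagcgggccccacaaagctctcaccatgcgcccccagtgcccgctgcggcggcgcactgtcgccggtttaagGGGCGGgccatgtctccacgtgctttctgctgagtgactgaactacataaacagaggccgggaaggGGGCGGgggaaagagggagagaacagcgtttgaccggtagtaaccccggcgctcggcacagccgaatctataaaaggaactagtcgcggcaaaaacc
Srebf1 (chr11:60222582-60222831, minus strand): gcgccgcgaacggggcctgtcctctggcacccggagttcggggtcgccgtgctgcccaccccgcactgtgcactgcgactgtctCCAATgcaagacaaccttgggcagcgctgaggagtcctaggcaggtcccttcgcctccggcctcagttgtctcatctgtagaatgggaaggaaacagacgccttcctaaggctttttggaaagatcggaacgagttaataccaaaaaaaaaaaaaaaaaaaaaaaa

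In Hmgcs1 the sterol element lay 137 to 129 bases before the listed start, with 3 CCAAT cores (read as ATTGG) and 2 GGGCGG cores in the same window. Pmvk held a single CCAAT core and no GGGCGG, and Dhcr7 held a single GGGCGG core, read on the other strand. The window inside Srebf1 held 1 CCAAT core, and that of Abca1 held 2 GGGCGG cores, 163 to 158 and 97 to 92 bases before the listed start.

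AngII against no AngII was compared in each background, and as the average of both backgrounds. On average over both backgrounds, 3 enzymes of cholesterol synthesis, Pmvk, Fdft1 and Dhcr7, were lower with AngII. The enzyme Sqle and the sterol carrier Stard4 were higher. Of these 5 genes, only Pmvk and Sqle passed in Ovx mice alone, and none passed in mice with ovaries alone. The changes ran in both directions within a single pathway: neighbouring enzymes, such as Fdft1 and Sqle, moved opposite ways. Thus 5 of 29 genes, or 17.2%, passed an adjusted p of at most 0.05 in limma, against 17.7% of all genes tested (9.14% higher and 8.54% lower), a share close to that background. The median log2 fold change of the 29 genes was -0.064, beside -0.0065 for all genes. None of the 29 genes also passed a fold limit of 1 log2 unit in either direction, against 1.99% of all genes. Without the library labelled Ctrl replicate 4, 7 of 29 passed, or 24.1%, against 25.8% of all genes (13.6% higher and 12.2% lower). Soat1 (higher) and Sc5d (lower) were then added and Sqle, at 1.05, passed the fold limit, as did 2.62% of all genes.

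**Figure D1:**
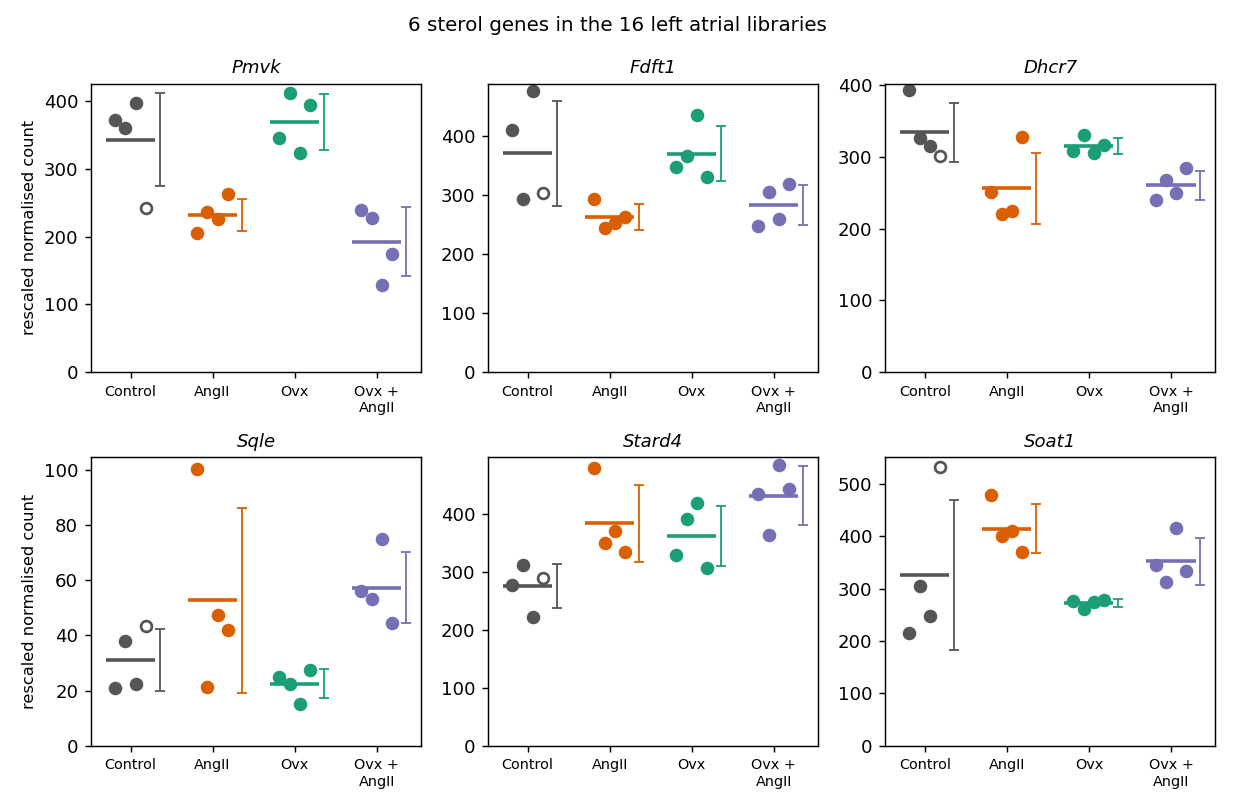
Rescaled normalised counts (vertical axis, linear, from 0) of 6 sterol genes in each of the 16 libraries, by group. Points are libraries, horizontal lines are group means and vertical bars are 1 SD (n = 4); the open circle is the library labelled Ctrl replicate 4. Pmvk lay between 129 and 262 in the 8 libraries with AngII and between 324 and 412 in the Ovx libraries, and the open circle, at 242, was the lowest control.

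Pmvk makes mevalonate diphosphate, the last phosphorylation before decarboxylation (chr3:89454541-89469014, plus strand). Its normalised counts were 372, 361, 397 and 242 in control libraries and 206, 237, 226 and 262 with AngII. They were 346, 412, 324 and 395 in Ovx and 239, 228, 129 and 174 in Ovx + AngII libraries. All 4 Ovx + AngII libraries thus lay below all 4 Ovx libraries, while in mice with ovaries only the library labelled Ctrl replicate 4 lay within the AngII range. The average log2 fold change with AngII was -0.75 ± 0.13 (SE), with an adjusted p of 0.00101. It was -0.97 ± 0.18 in Ovx mice (adjusted p = 0.00419) and -0.54 ± 0.18 in mice with ovaries (adjusted p = 0.120), or -0.70 there (adjusted p = 0.0187) without the library labelled Ctrl replicate 4. The difference between the 2 backgrounds, -0.43 ± 0.26, had an adjusted p of 0.861.

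Fdft1, squalene synthase, joins isoprenoid units into squalene, the step that commits them to sterols (chr14:63145150-63181687, minus strand). It was at 409, 292, 477 and 303 normalised counts in controls and at 293, 243, 252 and 263 with AngII. It was at 347, 366, 436 and 330.2 in Ovx and at 248, 305, 259 and 318 in Ovx + AngII libraries. The groups did not overlap in Ovx mice, and in mice with ovaries a single AngII library just reached the lowest control. The average fold change was -0.43 ± 0.10 on the log2 scale (adjusted p = 0.00977), or -0.47 without the library labelled Ctrl replicate 4. In the annotation, exons of Fdft1 overlap those of Ctsb on the other strand. The library kit kept strand, but the strand setting of the counting is not given in the sources used here.

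Dhcr7 reduces the last double bond in one branch of the route to cholesterol (chr7:143823167-143848410, plus strand). It was at 393, 327, 315 and 301 normalised counts in controls and at 251, 221, 225 and 328 with AngII. It was at 309, 331, 306 and 316 in Ovx and at 240.0, 268, 249 and 285 in Ovx + AngII libraries. One AngII library, at 328, stood inside the control range, and all Ovx + AngII libraries were below all Ovx libraries. The average fold change was -0.33 ± 0.09 on the log2 scale (adjusted p = 0.0130), or -0.36 without the library labelled Ctrl replicate 4.

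Sqle, squalene epoxidase, is a rate-limiting enzyme of the later part of the pathway (chr15:59315092-59331193, plus strand). It was at 20.8, 38.1, 22.3 and 43.3 normalised counts in controls and at 100.3, 21.3, 47.2 and 42.1 with AngII. It was at 25.1, 22.5, 15.2 and 27.5 in Ovx and at 56.3, 53.1, 75.1 and 44.6 in Ovx + AngII libraries. The groups overlapped widely in mice with ovaries and did not overlap in Ovx mice. The average fold change was 0.96 ± 0.27 on the log2 scale (adjusted p = 0.0222). With a mean of 40.9 normalised counts and a within-group SD of 0.57 on the log2 scale, it was the most variable of the 29 genes. This call was lost without Ovx + AngII replicate 3 (adjusted p = 0.0507).

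Stard4 carries cholesterol between membranes inside the cell. It was at 278, 311, 223 and 289.7 normalised counts in controls and at 479.9, 350.2, 370.0 and 333 with AngII. It was at 329, 391, 418 and 307 in Ovx and at 435, 363, 484 and 444 in Ovx + AngII libraries. Every AngII library was above every control, and the ranges overlapped in Ovx mice. The average fold change was 0.37 ± 0.10 on the log2 scale (adjusted p = 0.0179), or 0.38 without the library labelled Ctrl replicate 4.

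Soat1, which esterifies cholesterol for storage in droplets, did not pass in the full set of libraries. It was at 216, 305, 248 and 533 normalised counts in controls, 478, 399.8, 409 and 369 with AngII, 275, 262, 273 and 278 in Ovx, and 345, 313, 415 and 333 in Ovx + AngII libraries. The library labelled Ctrl replicate 4, at 533, was higher than all 15 others. The average fold change with AngII was 0.40 ± 0.14 on the log2 scale (adjusted p = 0.0623), and 0.53 without that library (adjusted p = 0.000396). Without it, all AngII libraries lay above the 3 remaining controls, and all Ovx + AngII libraries lay above all Ovx libraries. The macrophage markers, which were also highest in that library, summed to 19128 to 28984 with AngII, 15384 to 18720 in Ovx and 16119 to 21079 in Ovx + AngII libraries. With AngII on average, 9 of these 10 markers had a fold change above 0 and none passed in the full set, and without that library 10 were above 0 and 1 passed. Their part in the Soat1 values was not tested, and in bulk tissue fewer cells of a type and less RNA per cell cannot be told apart.

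In mice with ovaries alone, none of the 29 genes passed, against 2.81% of all genes (0.681% without AngII replicate 3), and 7 had an unadjusted p below 0.05, among 2661 of all genes. The 4 genes of smallest p, none of which passed, were Stard4 (0.47, adjusted p = 0.0797), Dhcr7 (-0.39, 0.0916), Fdft1 (-0.47, 0.0982) and Pmvk (-0.54, 0.120), each as log2 fold change and adjusted p. Without the library labelled Ctrl replicate 4, 5 of 29 passed against 10.4% of all genes (5.41% higher and 5.02% lower): Soat1 and Stard4 were higher, and Pmvk, Fdft1 and Dhcr7 lower. The AngII and control ranges did not overlap for Stard4, which was higher, and for Mvd, which was lower, that is 2 of 29 genes against 7.18% of all genes. Without that library 7 of 29 did not overlap, against 19.6%.

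In Ovx mice, Pmvk and Sqle passed, 1 lower and 1 higher, that is 6.90% of the 29 genes against 10.3% of all genes (4.32% lower and 5.94% higher). Sqle, at 1.31 ± 0.38 on the log2 scale (adjusted p = 0.0389), was the only gene of the 29 that also passed the fold limit, against 2.32% of all genes. Its call was lost without AngII replicate 3 and without any single one of the 8 Ovx and Ovx + AngII libraries, with adjusted p up to 0.123, whereas Pmvk passed in all 16 fits that left out 1 library. Without the library labelled Ctrl replicate 4, which enters this comparison only through the shared estimate of spread, Soat1 was added (0.36, adjusted p = 0.0496), that is 2 higher and 1 lower against 14.2% of all genes (8.04% higher and 6.2% lower, 2.66% past the fold limit). Fdft1 (-0.39, adjusted p = 0.110) and Acat2 (-0.45, adjusted p = 0.132) came next and did not pass. Ranges did not overlap for 6 of 29 genes, against 21.9% of all genes: Sqle and Soat1 were higher, and Pmvk, Fdft1, Dhcr7 and Acat2 lower. Acat2, the thiolase that joins acetyl-CoA at the head of the pathway, was at 133, 222, 197 and 134 normalised counts in Ovx and at 132, 125, 106 and 129 in Ovx + AngII libraries.

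**Figure D2:**
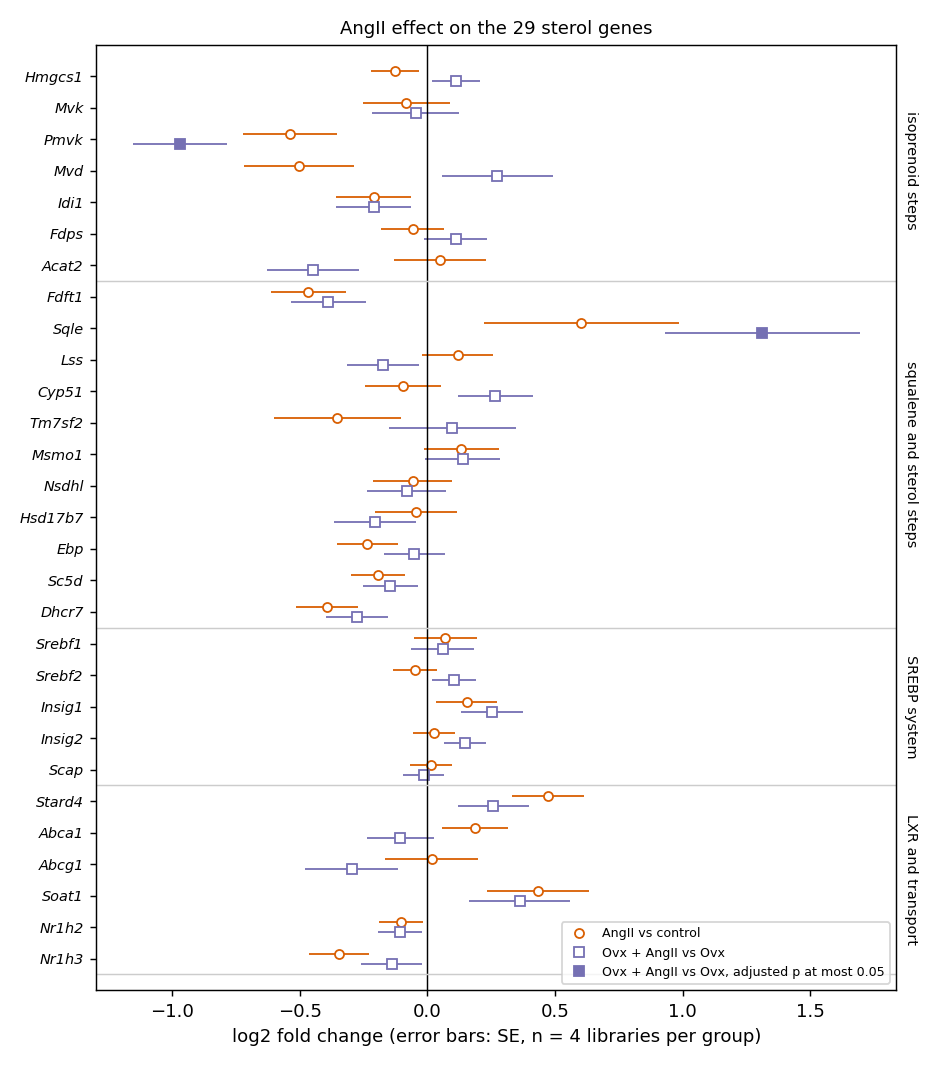
Log2 fold change with AngII (horizontal axis; bars are the SE from limma, n = 4 libraries per group) for the 29 genes (vertical axis), in mice with ovaries (circles) and in Ovx mice (squares). Filled symbols passed an adjusted p of at most 0.05: only Pmvk, at -0.97, and Sqle, at 1.31, both in Ovx mice.

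By role, 6 of the 7 isoprenoid enzymes had an average fold change below 0 with AngII, but only Pmvk passed. The others ranged upward to 0.03 for Fdps, which makes farnesyl diphosphate. Of the 11 squalene and sterol enzymes, 8 were below 0, 2 of them past the test, and 1 rose. Between Sqle and Dhcr7 no enzyme passed, and differences ran from -0.17 for Sc5d to 0.14 for Msmo1. Lanosterol synthase Lss was at -0.03 and the demethylase Cyp51 at 0.09, and neither passed. The genes that did not pass ranged from -0.24 to 0.40 on the log2 scale.

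The SREBP genes passed in no comparison. Srebf2, the factor that drives cholesterol synthesis, was at 1401, 1441, 1369 and 1849.5 normalised counts in controls and 1591, 1363, 1411 and 1457 with AngII. It was at 1456, 1471, 1429.6 and 1597 in Ovx and 1631, 1695, 1551 and 1521 in Ovx + AngII libraries. The groups overlapped, and the average AngII difference was 0.03 ± 0.06 on the log2 scale. Srebf1, whose products lean to fatty acid synthesis, was at 778, 1088, 777 and 1004 in controls and 924, 830.3, 903 and 1162 with AngII. It was at 689.8, 849, 844 and 853 in Ovx and 793, 806, 951 and 819 in Ovx + AngII libraries, with an average AngII difference of 0.07 ± 0.09. Exons of Srebf1 overlap those of Rai1 on the other strand.

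Insig1, itself an SREBP target that closes the feedback loop, was at 345, 353, 321 and 382 normalised counts in controls and 495, 335, 409.6 and 338 with AngII. It was at 359, 361, 389 and 385 in Ovx and 444, 489, 374 and 483 in Ovx + AngII libraries. In each background 1 or 2 treated libraries fell among the untreated ones, and the average difference of 0.20 ± 0.08 did not pass (adjusted p = 0.110). Insig2, the second anchor of SCAP, was at 1213, 995, 1234 and 1023 in controls and 1055, 1199, 1202 and 1078 with AngII. It was at 1131, 1135, 1036 and 1071 in Ovx and 1257, 1253, 1244 and 1095 in Ovx + AngII libraries, with an average difference of 0.09 ± 0.06 (adjusted p = 0.330). Scap had the smallest within-group SD of the 29 genes, 0.11 on the log2 scale, and an average AngII difference of 0.0003.

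Of the LXR receptors, Nr1h3 encodes LXR alpha, which is abundant in macrophages and liver. It was at 731, 784, 678 and 719 normalised counts in controls and 443, 532, 645 and 705 with AngII. It was at 712, 574, 699 and 607 in Ovx and 583, 613, 561 and 587 in Ovx + AngII libraries. A single AngII library reached the control range, and the average difference of -0.24 ± 0.08 did not pass (adjusted p = 0.0554). Nr1h2, the more widely expressed LXR beta, was at 1452, 1205, 1369.6 and 1417 in controls and 1248, 1397, 1201 and 1218 with AngII. It was at 1349.5, 1413, 1464 and 1362 in Ovx and 1414, 1095, 1285 and 1422 in Ovx + AngII libraries, and it did not pass (-0.10 ± 0.06, adjusted p = 0.258).

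**Figure D3:**
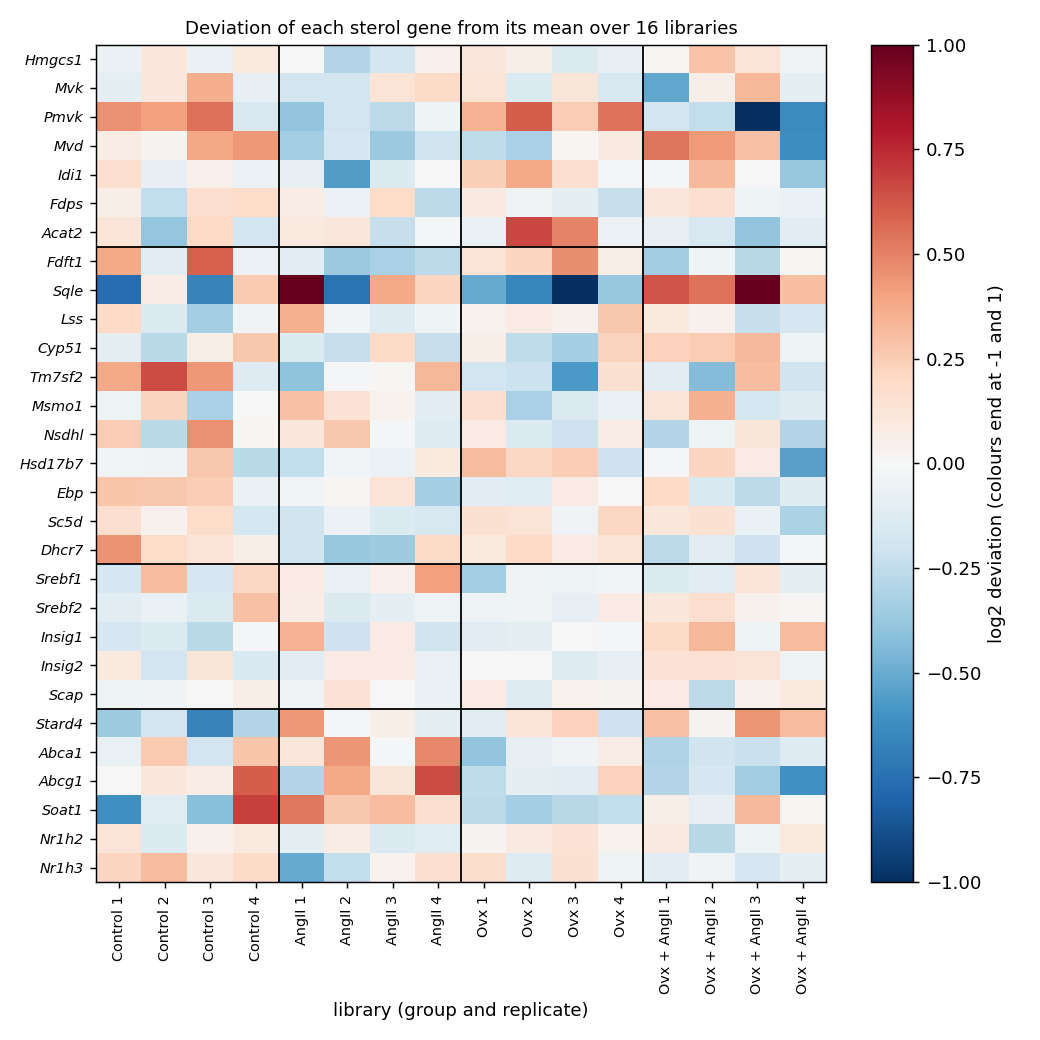
Log2 deviation of each of the 29 genes (rows, in blocks by role) from its mean over the 16 libraries (columns, in blocks by group); colours end at -1 and 1. The Pmvk and Sqle rows carry the strongest colours, and the rows of the SREBP genes are pale, with within-group SDs from 0.11 for Scap to 0.19 for Srebf1.

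Other sterol genes outside the module were taken from a list of 54, of which 50 were tested. With AngII on average, 8 of the 50 passed, or 16% against 17.7% of all genes, 3 higher and 5 lower, and 1 of the higher genes is not reported here. Gramd1a, a carrier of cholesterol from the plasma membrane, rose by 0.38 on the log2 scale (adjusted p = 0.00111), and Fads1, a fatty acid desaturase, by 0.20 (0.0291). Stard3, a cholesterol carrier of late endosomes, fell by 0.61 (0.00249), and Npc1, the lysosomal cholesterol exporter, fell by 0.38 (0.00955). Acat1, a mitochondrial thiolase, fell by 0.42 (0.00558), Lpin1, a phosphatidate phosphatase, by 0.36 (0.0303), and the transporter Abca7 by 0.35 (0.0319). In Ovx mice alone, 5 of the 50 passed, or 10% against 10.3% of all genes, 3 higher and 2 lower. Of these, Gramd1a (0.45) was higher, and Stard3 (-0.90) and Npc1 (-0.55) lower. In mice with ovaries none passed. Without the library labelled Ctrl replicate 4, 4 of the 50 passed there, or 8% against 10.4% of all genes, 3 higher and 1 lower, among them Gramd1a and Lipa, a lysosomal lipase, which were higher, and Acat1, which was lower.

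Markers of other cell types also differed with AngII. On average 3 of 5 endothelial and 2 of 6 fibroblast markers passed as higher, against 9.14% of all genes, and 1 of 6 Schwann cell and 1 of 8 adipocyte markers as lower, against 8.54%. Of the 6 atrial markers 1 passed as higher. The fibroblast and the atrial markers each had 3 above 0 and 3 below 0, with medians of 0.02 and 0.05 on the log2 scale. The summed endothelial markers ranged from 21243 to 27671 in controls, 27054 to 29300 with AngII, 21955 to 23451 in Ovx and 23782 to 29074 in Ovx + AngII libraries. The control maximum was the library labelled Ctrl replicate 4, and the other controls reached 23887, so that without it the control and AngII ranges did not overlap. Their part in the sterol gene results was not tested.

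Ovx was compared with intact ovaries in untreated mice, under AngII, and as the average of both. None of the 29 genes passed in any of these comparisons, and neither did any of the 14251 genes tested by limma (0% called). The lowest adjusted p of the 29 genes was 0.563 without AngII, 0.646 with AngII and 0.416 on average, or 0.865, 0.260 and 0.482 without the library labelled Ctrl replicate 4. An unadjusted p below 0.05 was reached by 2, 3 and 3 of the 29 genes, and by 1229, 884 and 1318 of all genes. The median fold change of the 29 genes in the average effect was -0.0035 on the log2 scale, beside 0.0034 for all genes. The 95% intervals of the average Ovx difference lay within 1 log2 unit of 0 for all 29 genes, with outermost bounds of -0.69 and 0.52. In the separate comparisons they did so for 27 genes without AngII, where Sqle and Tm7sf2 did not (lowest bound -1.22), and for 28 under AngII, where Sqle did not (highest bound 1.11). A missed threshold does not show that a gene was the same in both groups. The Ovx groups and the second deposited scale coincide, so any effect of separate processing cannot be told apart from Ovx.

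**Figure D4:**
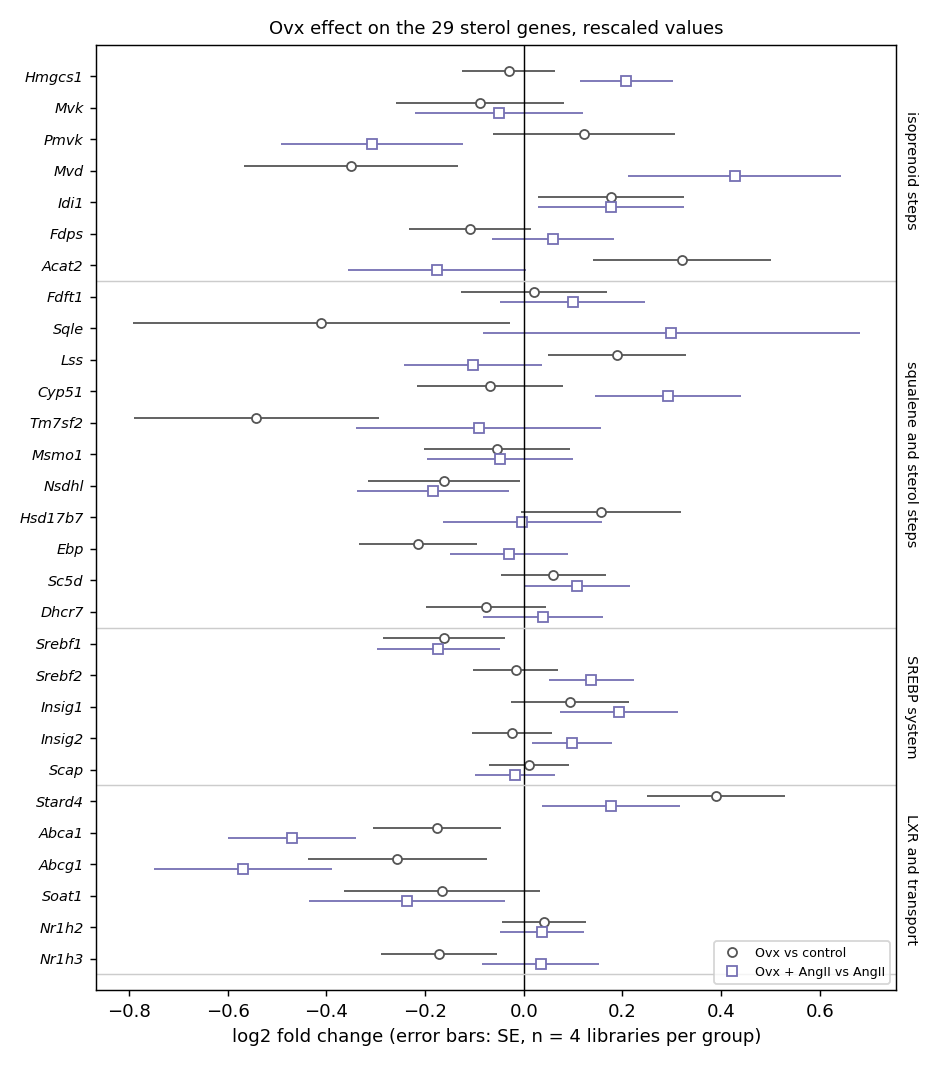
Log2 fold change with Ovx (horizontal axis, after rescaling; bars are the SE from limma, n = 4 libraries per group) for the 29 genes (vertical axis), in untreated mice (circles) and under AngII (squares). All symbols are open because no gene passed; Abcg1, at -0.57, and Abca1, at -0.47, lay furthest below 0 under AngII, and Tm7sf2, at -0.54, without AngII.

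The cholesterol exporters had the smallest p-values of the average Ovx effect and did not pass. Abca1, which loads cholesterol onto apolipoprotein A-I (chr4:53030789-53159988, minus strand), was at 1441, 1818, 1328 and 1839 normalised counts in controls and 1639, 2065, 1501 and 2123 with AngII. It was at 1157, 1431, 1484 and 1598 in Ovx and 1229, 1320.5, 1302 and 1387 in Ovx + AngII libraries. Every Ovx + AngII library was below every AngII library, the only gene of the 29 without overlap there, against 4.55% of all genes. The log2 difference was -0.47 ± 0.13 under AngII (unadjusted p = 0.00231, adjusted p = 0.646) and -0.18 ± 0.13 without it (adjusted p = 0.680). On average it was -0.32 ± 0.09 (95% interval -0.52 to -0.13, adjusted p = 0.416), or -0.29 without the library labelled Ctrl replicate 4 (adjusted p = 0.482).

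Abcg1, which exports cholesterol to HDL particles (chr17:31057694-31117984, plus strand), was at 354, 379, 372 and 537 in controls and 288, 459, 383 and 555 with AngII. It was at 295, 332, 325 and 413 in Ovx and 287, 314, 277 and 231 in Ovx + AngII libraries. The ranges overlapped in both backgrounds, with 1 AngII library at 288. The average difference was -0.41 ± 0.13 (95% interval -0.68 to -0.14, adjusted p = 0.427), or -0.34 without the library labelled Ctrl replicate 4 (adjusted p = 0.559).

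Macrophage markers were also below 0 in the average Ovx effect. All 10 had an average Ovx difference below 0, as did 6929 of all 14251 genes, with a median of -0.47 on the log2 scale. Of the 10, 7 had an unadjusted p below 0.05, beside 1318 of all genes, and none passed. Without the library labelled Ctrl replicate 4 the median was -0.33, and 7 again had such a p, beside 1021 of all genes. In untreated mice the median moved from -0.47 to -0.17 without that library, and markers with such a p from 3 to 0. Under AngII the median was -0.53, and 3 had such a p, or 7 without that library. The marker sums were 15870 to 46040 in controls, 19128 to 28984 with AngII, 15384 to 18720 in Ovx and 16119 to 21079 in Ovx + AngII libraries, and no marker was at 0 throughout. With AngII on average, 9 of the 10 were above 0, while Abca1 was at 0.04 and Abcg1 at -0.14 on the log2 scale, and none of these passed. Of 5 erythroid markers, 4 were below 0 in the average Ovx effect, with a median of -1.26, and none passed. Without the library labelled Ctrl replicate 4 that median was -0.86, and in untreated mice the median moved from -0.98 to -0.18. The part of either marker set in the Abca1 and Abcg1 values was not tested.

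**Figure D5:**
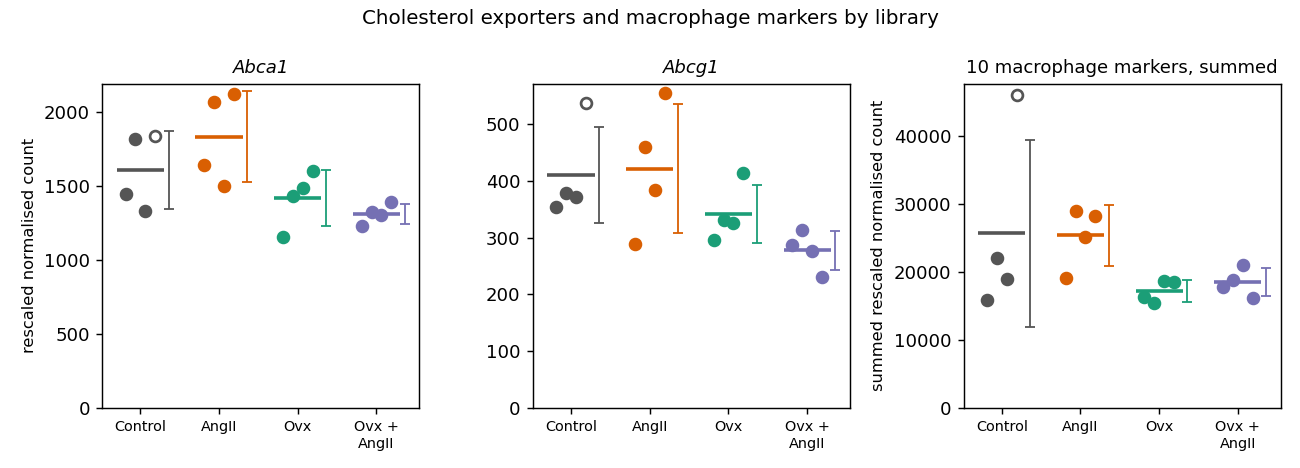
Rescaled normalised counts (vertical axes, linear, from 0) of Abca1, Abcg1 and the sum of 10 macrophage markers in each of the 16 libraries, by group; lines are means, bars 1 SD (n = 4), and the open circle is the library labelled Ctrl replicate 4. The Ovx + AngII libraries lay between 1229 and 1387 for Abca1, below all AngII libraries, and the open circle had the highest macrophage sum, 46040.

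Stard4 (0.28 ± 0.10, adjusted p = 0.487) and Srebf1 (-0.17 ± 0.09, adjusted p = 0.571) completed the 4 smallest p-values of the average Ovx effect. In untreated mice the 4 smallest belonged to Stard4 (0.39, adjusted p = 0.563), Tm7sf2 (-0.54, 0.564), Ebp (-0.21, 0.595) and Acat2 (0.32, 0.597). Tm7sf2, a sterol reductase, was at 47.4, 57.5, 49.1 and 33.0 normalised counts in controls and 31.5, 31.1, 24.0 and 40.3 in Ovx libraries, and its exons overlap those of Vps51 on the same strand. Ebp, which isomerises a sterol double bond, was at 503, 501, 492 and 396 in controls and 385, 383, 439.7 and 417 in Ovx libraries. In both genes the library labelled Ctrl replicate 4 was the only control within the Ovx range, and without it the differences were -0.70 for Tm7sf2 and -0.30 for Ebp, with an adjusted p of 0.865 for each. None of the 29 genes had ranges without overlap, against 4.45% of all genes, and 3 did without that library, against 7.71%: Insig1 was higher, and both Tm7sf2 and Ebp were lower. Under AngII, Hmgcs1 (0.21, adjusted p = 0.792) and Cyp51 (0.29, adjusted p = 0.819) followed Abca1 and Abcg1.

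Of the 7 isoprenoid enzymes 4 were above 0 in the average Ovx effect, as were 5 of the 11 sterol enzymes, 3 of the 5 SREBP genes and 2 of the 6 LXR and transport genes. Hmgcs1, which condenses acetyl units early in the pathway, was at 813, 915, 812 and 913 normalised counts in controls and 922, 888, 768 and 805 in Ovx libraries. It was at 849, 695, 749 and 884 with AngII and 859.7, 1038, 937 and 831 in Ovx + AngII libraries, and the ranges overlapped in both. None of the 50 other sterol genes passed in an Ovx comparison. Adipocyte markers were above 0 for 7 of 8 genes on average, with a median of 0.62 on the log2 scale, and none passed. The median was 1.59 in untreated mice, with 7 above 0, and 0.11 under AngII, with 5 above 0. Their summed levels overlapped, at 4597 to 6408 in controls and 4471 to 9615 in Ovx libraries.

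The interaction asked whether the AngII response differed between Ovx mice and mice with ovaries. None of the 29 genes passed, nor did any of all genes (0% called), and an unadjusted p below 0.05 was reached by 1 of the 29 and by 824 of all genes. That gene was Mvd, which decarboxylates mevalonate diphosphate. It was at 88.7, 86.1, 110.3 and 114 normalised counts in controls and 66.2, 74.8, 64.8 and 73.3 with AngII, so that no AngII library reached a control. It was at 70.6, 67.2, 84.7 and 89.9 in Ovx and 123, 113, 103 and 54.3 in Ovx + AngII libraries, where 3 libraries lay above all Ovx libraries and 1 below. The difference between responses was 0.78 ± 0.31 on the log2 scale (unadjusted p = 0.0219, adjusted p = 0.834), or 0.71 without the library labelled Ctrl replicate 4 (adjusted p = 0.717). Acat2 (-0.50, adjusted p = 0.837), Hmgcs1 (0.24, 0.843) and Cyp51 (0.36, 0.847) followed. For Sqle the difference was 0.71 ± 0.54 (adjusted p = 0.895), or 0.53 without that library, so its larger value in Ovx mice was not distinguished from that in mice with ovaries.

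The spread between libraries of a group sets what could be seen. The within-group SD of the 29 genes had a median of 0.21 on the log2 scale, from 0.11 for Scap to 0.57 for Sqle, beside 0.19 for all genes. By group the median was 0.21 in controls, 0.17 without the library labelled Ctrl replicate 4, 0.19 in AngII libraries, 0.15 in Ovx libraries and 0.17 in Ovx + AngII libraries. The SE of a comparison between 2 groups ranged from 0.08 to 0.38 across the 29 genes.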

How the data were processed

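RNA was extracted from the LA and libraries were made with a stranded mRNA kit. According to the study's methods and the labels, the authors aligned reads with STAR to mm10, used Salmon and ran DESeq2 in BaseSpace; versions are not given in the sources used here. The deposited signal is a count per gene divided by a size factor, so values are not whole numbers. Low values were read for steps of 1 read: 74.1% to 90.4% lay within 0.1 of a whole multiple (up to 10 steps), so whole reads were not recovered and no count test was run. The table held 24972 rows. Of these, 14 carried dates in place of symbols, held 0.0721% of the summed normalised counts and were left out.

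Median-of-ratios factors were recomputed over the 16 libraries (1.06 to 1.07 on the control side, 0.944 to 0.949 on the Ovx side). Values were tested as log2(value + 1) with limma 3.58.1 in R 4.3.3 (4 group means, empirical Bayes with a trend, two-sided), for genes with a mean of at least 10. P-values were adjusted by Benjamini-Hochberg over all genes within each of 7 comparisons; fold changes of low genes are understated on this scale. The average effect is the mean of a contrast over both backgrounds. Comparisons that share a group share its libraries. The script was tested on simulated data. Libraries were grouped by their GEO labels. Tissue was bulk, so no cell type was called. Marker lists were given as summed levels and as fold changes and calls of their genes, with no set test.

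The 29 genes and all lists were chosen with earlier results of these data known. Values in every library are given for genes past the adjusted p (at most 10 per comparison), for Srebf1, Srebf2, Insig1, Insig2, Nr1h2 and Nr1h3, and for a few others chosen after values were seen (Soat1, Abca1, Abcg1, Acat2, Mvd, Hmgcs1, Tm7sf2, Ebp); where fewer than 4 passed, the 4 smallest p-values are named. From the other sterol list, genes that passed are named (at most 8 per comparison), except a few that are not reported here. Alternatives were the deposited scale, scaling to column totals, pseudocounts of 0.5 and 5, no filter or a mean of at least 50, only the compared groups, array weights, and each library left out. Positions are from RefSeq on GRCm38.p6, and overlaps of exons from the GENCODE annotation of mm10.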

Additional observations from a re-analysis of the deposited data

Results flagged for a closer look

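Among the 29 genes, 6 values stood far from the other 3 libraries of their group, out of 116 groups of 4 examined; chance flags about 1 group in 20, or 5.8 here. The library labelled Ctrl replicate 4 held 3 of them: Ebp at 396 normalised counts (492 to 503 in the other controls), Srebf2 at 1849.5 (1369 to 1441) and Abcg1 at 537 (354 to 379). The others were Srebf1 at 689.8 in Ovx replicate 1 (844 to 853) and at 951 in Ovx + AngII replicate 3 (793 to 819), and Insig2 at 1095 in Ovx + AngII replicate 4 (1244 to 1257).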

How the results depend on the processing

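The count of genes past the adjusted p depended most on scale in the Ovx comparisons. On the deposited scale, where the median of all genes moved to -0.17 on the log2 scale in the average Ovx effect, 7 of the 29 genes passed in the average Ovx effect, all lower, against 28.4% of all genes, and 1, Abca1, under AngII, against 0.757%. With AngII in mice with ovaries, where none passed, array weights gave 4, and leaving out 1 library gave 0 to 5, with 5 without Ctrl replicate 4 and 2 without AngII replicate 4. In Ovx mice, where 2 passed, no filter gave 1, and a mean of at least 50 gave 1 (Sqle was not tested there). Leaving out 1 library gave 1 to 3 there, with 3 without Ctrl replicate 4. The compared groups alone gave 4 in Ovx mice, 2 higher and 2 lower, beside 1348 higher and 1128 lower among all genes. The average AngII count of 5 stayed between 4 and 7 when 1 library was left out. Scaling to column totals turned its split over all genes from 1302 higher and 1217 lower to 1025 and 1691, with 2 of the 29 higher and 4 lower. Over all genes, array weights gave 1958 and 1845 there, and in Ovx mice 1546 and 1327 against 846 and 615. In mice with ovaries 222 and 178 became 509 and 481 with array weights, and 1 and 1 with the compared groups alone. Leaving out 1 library moved the number of all genes past the test from 400 to between 97 (AngII replicate 3) and 1486 (Ctrl replicate 4) in mice with ovaries, by over 1.5 times also for Ctrl replicates 1, 2 and 3 and AngII replicates 1 and 4. In Ovx mice it moved 1461 to between 729 (Ovx + AngII replicate 3) and 2030 (Ctrl replicate 4), by over 1.5 times also for Ovx replicates 2, 3 and 4, and the average effect 2519 to between 1939 and 3683. In the 3 Ovx comparisons and the interaction, 0 became at most 4, none of them among the 29. No called gene changed direction under any alternative. In the average effect, Pmvk, Fdft1, Dhcr7 and Stard4 passed in all 16 fits with 1 library left out, and Sqle in 15. No paired analysis was possible because the labels give each library a serial number and no replicate number shared between groups.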
